A study of Mus musculus with 20 samples.

Results

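The genes described here encode the mitochondrial respiratory chain and the ATP synthase. They were chosen by symbol as the protein-coding genes of the mouse build GRCm38 that are named Nduf followed by a, b, c, s or v and a number, Sdha to Sdhd, Uqcr, Cox4 to Cox8, Atp5, or that are mitochondrially encoded subunits (mt-Nd, mt-Co, mt-Cytb, mt-Atp). The rule found 98 genes, of which 95 had a value, 82 in the nucleus and 13 on the mitochondrial chromosome, among 32991 genes with a value in all. The respiratory chain passes electrons from NADH (complex I) and succinate (complex II) through ubiquinol and cytochrome c (complex III) to oxygen (complex IV), and the proton gradient this builds drives ATP synthesis by complex V. Complexes I, III, IV and V hold subunits from both genomes, while complex II is wholly nuclear. Differentiated colonocytes are known to respire on butyrate made by the gut flora, and are rich in mitochondria.

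RNA was sequenced from the colon of 20 male C57BL/6 mice, 5 in each of 4 groups, all followed for 91 days. The Control group received distilled water by gavage. The PZH group received Pien Tze Huang, a formula of traditional Chinese medicine prepared in saline, by gavage at 250 mg/kg each day. The AOM/DSS group, labelled Model, received 1 injection of the carcinogen azoxymethane (AOM) at 12.5 mg/kg and then 4 cycles of 2% dextran sulfate sodium (DSS), a colitogen given in the drinking water for 5 days a cycle, which produces colitis-associated tumors. The PZH + AOM/DSS group, labelled Model + PZH, received both. The AOM/DSS group was gavaged with distilled water, as was Control. Each library came from whole colon tissue, so fewer cells of a type and less RNA per cell cannot be told apart. The question was how PZH acts on the colon under AOM/DSS. The labels do not say whether tumors were taken with the tissue, and in 1 place they name another tissue than colon. Of the 8 pan-epithelial markers, Vil1 stood at 237 ± 22.5 FPKM (SD, n = 5) in Control and 194 ± 21.6 in AOM/DSS and Cdh1 at 278 ± 39.7 and 286 ± 13.8. Epcam had a listed value of 0 in each Control mouse and of 0 to 844 FPKM in AOM/DSS mice. Of the 7 tested, 2 were lower in AOM/DSS, Krt19 (1879 ± 217 and 1114 ± 119 FPKM) and Cdx1 (215 ± 37.7 and 139 ± 21.9 FPKM), with a median difference of -0.29.

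Levels were FPKM, fragments scaled to transcript length and to library size, summed over the transcripts of a gene. The libraries held an estimated 15.3 to 19.4 M fragments. In the Control group, the summed squamous epithelium markers ranged from 0.824 to 299 FPKM, with 2 mice, numbers 17 and 50, far above the other 3, and mouse 35 of PZH + AOM/DSS had the lowest summed absorptive colonocyte markers of its group. Results that rest on these mice are given below without them. Differences were tested with limma on log2(FPKM + 1), with p adjusted over all genes tested by the Benjamini-Hochberg method and a gene called at an adjusted p under 0.05. Of the 98 genes, 88 passed the filter on low values in each comparison of a pair of groups, 79 nuclear and 9 mitochondrial, and 89 in the comparison across all groups. Cox7b2, Cox8c and a second entry of Atp5o had no value. The listed values of Ndufa13, Cox6a2, Cox8b, mt-Atp6, mt-Atp8, mt-Nd4 and mt-Nd4l were too low to test between a pair of groups. Ndufa13 was listed with less than 0.5 FPKM in 16 of 20 mice. Fragments in transcripts that the authors assembled were not counted, so a low listed value need not be a low level. Cox8b passed the filter over all groups.

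Of the members, 67 nuclear genes were matched to RefSeq promoters (GRCm38.p6, windows of 300 bases, 72 windows in all), 2 of them by an older symbol. The core of the NRF1 motif, GCGCATGC, on either strand, stood in 13.9% of these windows against 2.7% of all 32851 promoter windows. The ETS motif CCGGAAG stood in 22.2% against 8.9%, the YY1 motif AAGATGGC in 13.9% against 2.7%, and the CCAAT box in 41.7% against 37.4%. NRF1, the ETS factor GABP and YY1 are known regulators of nuclear genes for mitochondria. These matches are letters in a window and were not tested as sites. The 250 bases before the start of a pair of complex IV genes with unlike values are shown, with the motifs in capitals. Cox6a1 (chr5:115348959-115349208, minus strand) holds the NRF1 core on both strands, overlapping, as well as an ETS motif and a CCAAT box. Cox7a1 (chr7:30183921-30184170, plus strand) holds only CCAAT boxes of the 4 motifs, both on the reverse strand.
Cox6a1: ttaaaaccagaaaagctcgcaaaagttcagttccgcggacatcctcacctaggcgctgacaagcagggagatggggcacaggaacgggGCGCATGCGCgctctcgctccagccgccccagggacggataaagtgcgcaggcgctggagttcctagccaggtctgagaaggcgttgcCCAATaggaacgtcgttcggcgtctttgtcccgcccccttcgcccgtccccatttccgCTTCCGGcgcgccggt
Cox7a1: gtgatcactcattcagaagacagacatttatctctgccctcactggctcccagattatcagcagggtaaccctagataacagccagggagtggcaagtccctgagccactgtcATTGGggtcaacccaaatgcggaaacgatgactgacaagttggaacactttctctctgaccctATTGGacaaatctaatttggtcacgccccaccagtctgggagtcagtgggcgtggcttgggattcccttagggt

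In AOM/DSS colon the nuclear respiratory chain genes were lower than in Control in all 5 complexes. Of the 79 nuclear genes tested, 51 were lower and 0 higher, and 75 had a negative difference. The median difference was -0.48 on the log2 scale, against 0.09 over all 15812 genes tested. Among all genes, 7.23% were called lower and 16.4% higher. Of these 51 genes, 40 had no overlap between the 5 AOM/DSS mice and the 5 Control mice. Among all genes, 795 of the 1143 called lower had no overlap, which is 5.03% of the 15812 tested. Lack of overlap was thus common among genes called lower in general. The share of all calls that were higher, 69.4% here, became 55.4% under median of ratios scaling and 52.2% with a trend on transcript length removed, where 65 and 62 of the 88 members were lower. Without Control mice 17 and 50, 45 members were lower, 42 of them among those lower with all mice, and the nuclear median was -0.58.

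**Figure D1:**
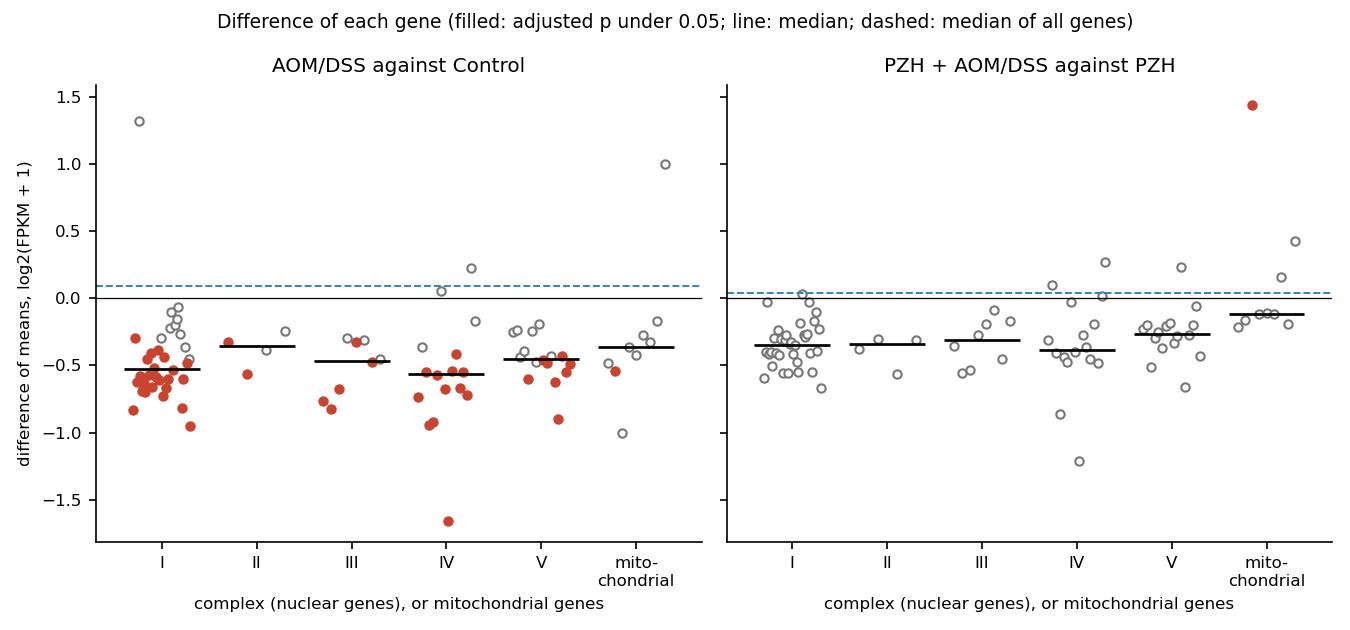
Difference of each tested gene on the log2(FPKM + 1) scale, by complex for nuclear genes and together for mitochondrial genes, between AOM/DSS and Control (left) and between PZH + AOM/DSS and PZH (right); filled points passed an adjusted p of 0.05, black lines are medians of the genes shown and dashed lines the median of all genes. Atp5s is not drawn. Nearly all nuclear genes lie under the dashed line in both panels, with medians of -0.48 and -0.31.

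Complex I, the NADH dehydrogenase, had the largest number of members, and 24 of its 34 tested nuclear genes were lower in AOM/DSS, with a median difference of -0.53. The level of Ndufv3 (chr17:31520115-31531331), an accessory subunit of the part that oxidizes NADH, was 99.2, 165, 130, 114 and 153 FPKM in Control and 72.1, 67.6, 74.4, 60.9 and 59.8 FPKM in AOM/DSS. Each Control mouse stood above each AOM/DSS mouse. The difference was -0.95 ± 0.14 (SE, adjusted p = 0.00109, limma), a fold of 1.93. Ndufa1 (chrX:37187588-37191163), a membrane subunit needed for assembly of complex I, went from 186 ± 35.4 FPKM to 103 ± 9.27 FPKM, without overlap, with a difference of -0.83 ± 0.14 (adjusted p = 0.00175). Ndufs6, a zinc-binding subunit, fell by 0.82 ± 0.21 (adjusted p = 0.0158). The core subunits that carry iron-sulfur clusters or bind quinone were not alike. Ndufs1, Ndufs7 and Ndufv1 were lower by 1.45-, 1.52- and 1.40-fold, while Ndufs3, Ndufs8 and Ndufv2 were not called (differences -0.16, -0.36 and -0.45). Ndufs4 and Ndufc2 had the smallest differences in the complex, -0.06 (95% interval -0.31 to 0.18) and -0.10 (-0.43 to 0.23). Ndufa12 was at 2.49 to 23.5 FPKM in Control and 3.28 to 71.9 FPKM in AOM/DSS, so that its difference of 1.32 ± 0.71 did not pass, and Ndufc1 was at 36.1 ± 13.6 and 29.0 ± 4.49 FPKM. Ndufb9, the most abundant nuclear gene of the complex, was lower by 1.52-fold, from 300.2 ± 43.9 FPKM in Control.

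Complex II, the succinate dehydrogenase, holds 4 genes. Sdhb, its iron-sulfur subunit, was at 151, 212, 170, 169 and 169 FPKM in Control and 132, 106, 126, 107 and 115 FPKM in AOM/DSS, with no overlap, a difference of -0.57 ± 0.11 (adjusted p = 0.00432, limma). Sdha, the flavoprotein that oxidizes succinate, was lower by 1.25-fold (adjusted p = 0.0196). The membrane anchor Sdhd, at 236 ± 31.9 and 199 ± 18.9 FPKM, and the anchor Sdhc were not called, and Sdhc ranged from 19.0 to 66.0 FPKM within Control.

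In complex III, the cytochrome bc1 complex, 5 of 8 nuclear genes were lower. The small subunits Uqcr11 and Uqcr10 had the largest differences of the complex, -0.82 ± 0.17 (adjusted p = 0.00628) and -0.76 ± 0.17 (adjusted p = 0.00807), and Uqcrb and Uqcrh were lower by 1.60- and 1.39-fold. Of the core proteins, Uqcrc2 was lower by 1.25-fold (adjusted p = 0.0493) and Uqcrc1 was not called, at 1.23-fold (adjusted p = 0.0726). Uqcrc2 was not called without Control mice 17 and 50. Without Control mouse 17 alone, Uqcrc1 was called lower and Uqcrc2 was not, so these core proteins are not told apart. Uqcrfs1, the Rieske iron-sulfur protein, did not pass (difference -0.31 ± 0.35), with 173 FPKM in 1 Control mouse and 55.1 to 82.5 FPKM in the other 4.

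In complex IV, the cytochrome c oxidase, 12 of 16 nuclear genes tested were lower. Cox7a1 (chr7:30184144-30186078), the isoform of subunit 7a known from heart and skeletal muscle, had the largest difference among all tested members. It was at 58.8, 93.6, 80.2, 64.1 and 89.8 FPKM in Control and at 23.5, 27.1, 22.6, 22.0 and 22.2 FPKM in AOM/DSS, a difference of -1.66 ± 0.14 (adjusted p = 2.42e-05, limma) and a fold of 3.16. Its partner isoform Cox7a2, the form known from most other tissues, was at 253 ± 35.9 and 175 ± 30.6 FPKM, a difference of -0.54 ± 0.15 (adjusted p = 0.0231). Both isoforms were lower, by unequal amounts. Cox6a1 was at 1091 ± 211 FPKM in Control and 567 ± 39.9 FPKM in AOM/DSS, where its lowest Control mouse, at 844 FPKM, stood above its highest AOM/DSS mouse, at 595 FPKM, and the fold was 1.90 (adjusted p = 0.00106). Cox5b and Cox4i1, which sit on the catalytic core, were lower by 1.92-fold and 1.67-fold. The common isoforms Cox6b1, Cox7b and Cox8a were lower by 1.48-, 1.59- and 1.65-fold. Cox4i2 and Cox6b2, the isoforms that elsewhere are lung- or testis-rich, were at 0.842 to 2.44 and 1.68 to 6.04 FPKM over the 20 mice and were not called, and nor was Ndufa4l2, known to be induced by hypoxia (2.62 ± 2.04 and 1.94 ± 0.871 FPKM). Cox6a2 and Cox8b, the muscle forms, reached at most 0.539 and 4.195 FPKM in any mouse. The exception among abundant subunits was Ndufa4, once counted in complex I, at 130 ± 28.8 and 152 ± 29.6 FPKM, a difference of 0.23 (95% interval -0.17 to 0.62, adjusted p = 0.398).

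**Figure D2:**
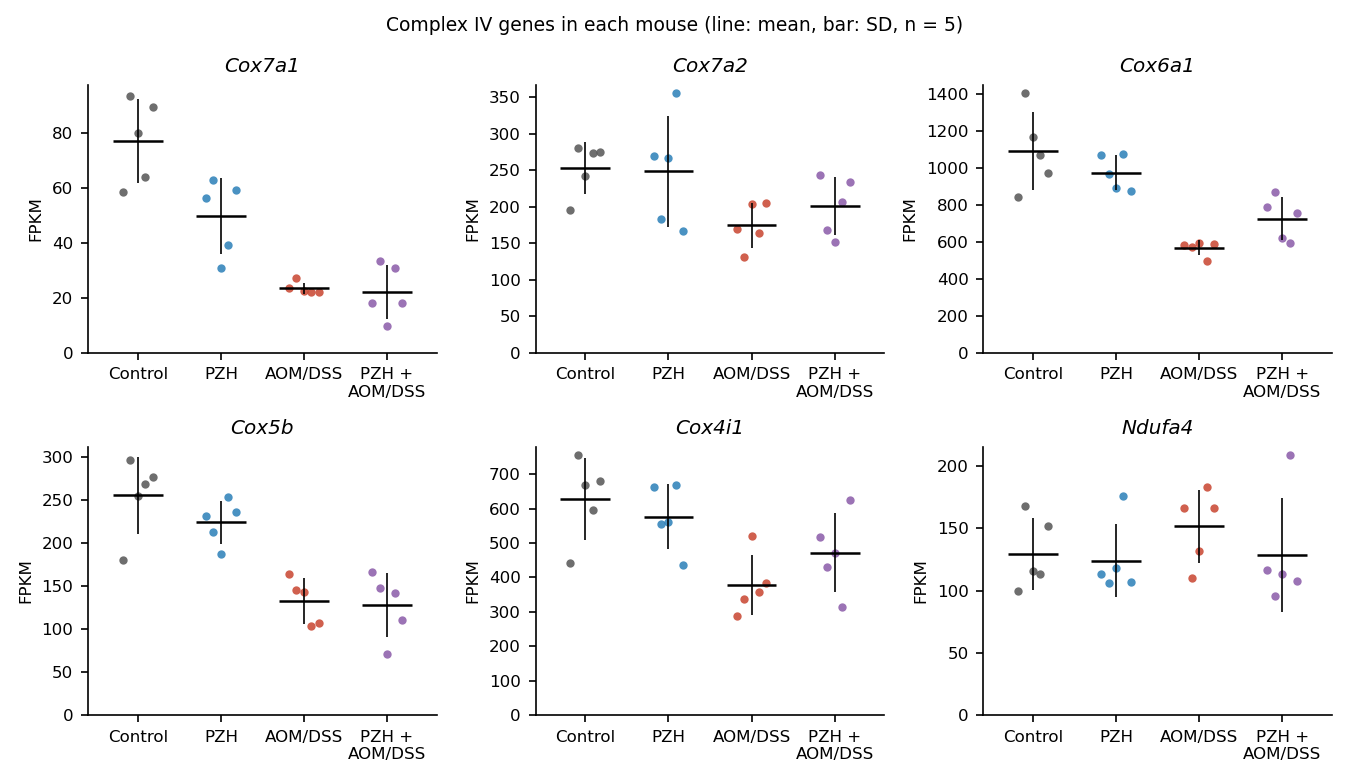
Level in FPKM of 6 complex IV genes in each of the 20 mice, by group; lines are means, bars SD (n = 5). Cox7a1, Cox6a1 and Cox5b of AOM/DSS mice stand below all Control mice, with Cox7a1 at 22.0 to 27.1 FPKM against 58.8 to 93.6 FPKM, while the 2 groups overlap for Ndufa4.

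In complex V, the ATP synthase, 8 of 16 nuclear genes were lower, and the median difference was -0.45. Of the 5 kinds of subunit in the catalytic head and its central stalk, alpha, beta, gamma and delta were not called, and epsilon (Atp5e) was lower by 1.51-fold. This split depended on the setting. Delta (Atp5d) was called lower without Control mice 17 and 50. Alpha, beta and delta were called lower under median of ratios scaling and with the trend on transcript length removed. Atp5b, the catalytic beta subunit and the most abundant of these genes, was at 724, 1009, 885, 817 and 833 FPKM in Control and 800, 683, 778, 699 and 658 FPKM in AOM/DSS, which overlap (difference -0.23, 95% interval -0.48 to 0.02, adjusted p = 0.168). Atp5a1, the alpha subunit, had a difference of -0.25 (adjusted p = 0.116), and Atp5c1, the gamma subunit, one of -0.44 ± 0.37. Of the small subunits of the membrane sector, Atp5j2 was lower by 1.54-fold (adjusted p = 0.00994) and Atp5k by 1.87-fold (adjusted p = 0.0497). Atp5k ranged from 73.6 to 192 FPKM in Control and from 38.2 to 87.8 FPKM in AOM/DSS, and was not called without Control mice 17 and 50 (adjusted p = 0.126). Atp5s, which the rule took in by its name, is not a subunit and had a difference of 0.31 (adjusted p = 0.308).

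The 13 mitochondrial genes are read from 1 circular chromosome, where neighbours meet or overlap. Atp8 and Atp6 share 43 bases, Atp6 and Co3 share 1, Nd4l and Nd4 share 7, and Nd5 and Nd6, on opposite strands, share 14. Of the 13, mt-Atp6 and mt-Nd4l were listed under 0.5 FPKM in all 20 mice, mt-Atp8 in 19 and mt-Nd4 in 17, with 838 to 1143 FPKM in the other 3. No level is read from mt-Atp6, mt-Nd4l, mt-Atp8 and mt-Nd4. The genes beside them, mt-Co2, mt-Co3, mt-Nd3 and mt-Nd5, stood at 3310 to 6715, 21.4 to 1300, 416 to 868 and 1011 to 1930 FPKM. mt-Nd6 lies opposite to its neighbours and the library kit is not stated to keep strand. Of the 9 tested, 8 had a negative difference between AOM/DSS and Control and 1 was lower by the test. mt-Co2 (chrM:7013-7696), the subunit that takes electrons from cytochrome c, was at 5902, 6715, 5484, 5272 and 5250 FPKM in Control and at 4358, 3518, 4042, 3502 and 4292 FPKM in AOM/DSS, without overlap, a difference of -0.54 ± 0.14 (adjusted p = 0.0183, limma). Without Control mice 17 and 50 the adjusted p was 0.0538. mt-Co1 (chrM:5328-6872), the catalytic subunit and the highest member at 16900 ± 1780 and 12060 ± 934 FPKM, did not overlap either but did not pass (difference -0.48, adjusted p = 0.0551), and nor did mt-Cytb, with -0.36 (adjusted p = 0.0861). mt-Nd1, mt-Nd2, mt-Nd3 and mt-Nd5, subunits of complex I, had differences of -0.42, -0.27, -0.33 and -0.17 and did not pass. mt-Co3 and mt-Nd6 varied most within groups, from 21.4 to 1300 FPKM and from 8.67 to 214 FPKM over the 20 mice, with differences of -1.002 ± 0.87 and 1.004 ± 0.67. The median over the 9 genes was -0.36.

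**Figure D3:**
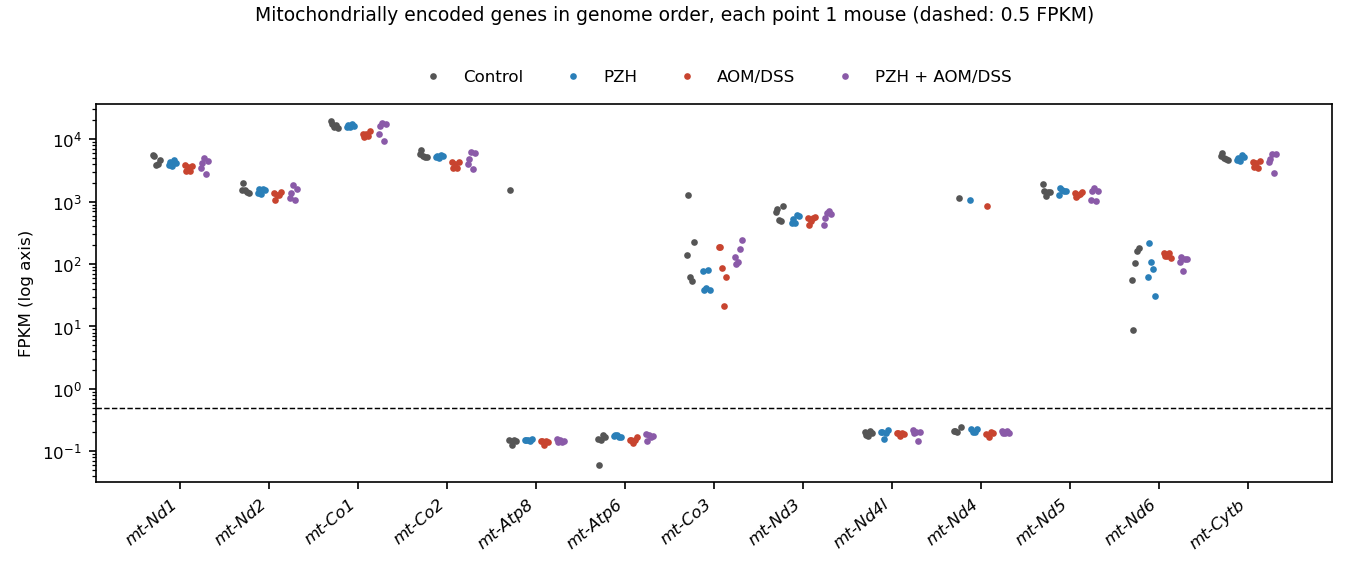
Level of the 13 mitochondrially encoded genes in genome order on a log axis, with 1 point a mouse and colors for the groups; the dashed line marks 0.5 FPKM. mt-Atp6, mt-Nd4l and nearly all values of mt-Atp8 and mt-Nd4 lie under the line, while mt-Co1 lies at 9546 to 19330 FPKM in the 20 mice.

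Nuclear and mitochondrial members were also summed within each mouse. Shares are of the FPKM summed over all genes with a value, without the transcripts that the authors assembled. The nuclear members took 3.66% ± 0.358 of this sum in Control mice, 3.62% ± 0.336 under PZH, 2.64% ± 0.107 under AOM/DSS and 2.87% ± 0.293 with both treatments (SD, n = 5). The mitochondrial members took 7.83% ± 0.587, 7.72% ± 0.296, 5.98% ± 0.290 and 7.05% ± 1.68. Their sum holds all 13 genes as listed, also those from which no level is read. Of these, mt-Nd4 and mt-Atp8 reached 1143 and 1525 FPKM in single mice, and they also enter the ratio below. AOM/DSS mice stayed at 5.64% to 6.35%, below all Control mice (7.14% to 8.65%), while PZH + AOM/DSS mice spread from 4.81%, in mouse 35, to 8.80%. The ratio of mitochondrial to nuclear members was 2.16 ± 0.348 in Control, 2.15 ± 0.193 under PZH, 2.26 ± 0.127 under AOM/DSS and 2.49 ± 0.726 with both treatments, where it ran from 1.81 to 3.50.

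**Figure D4:**
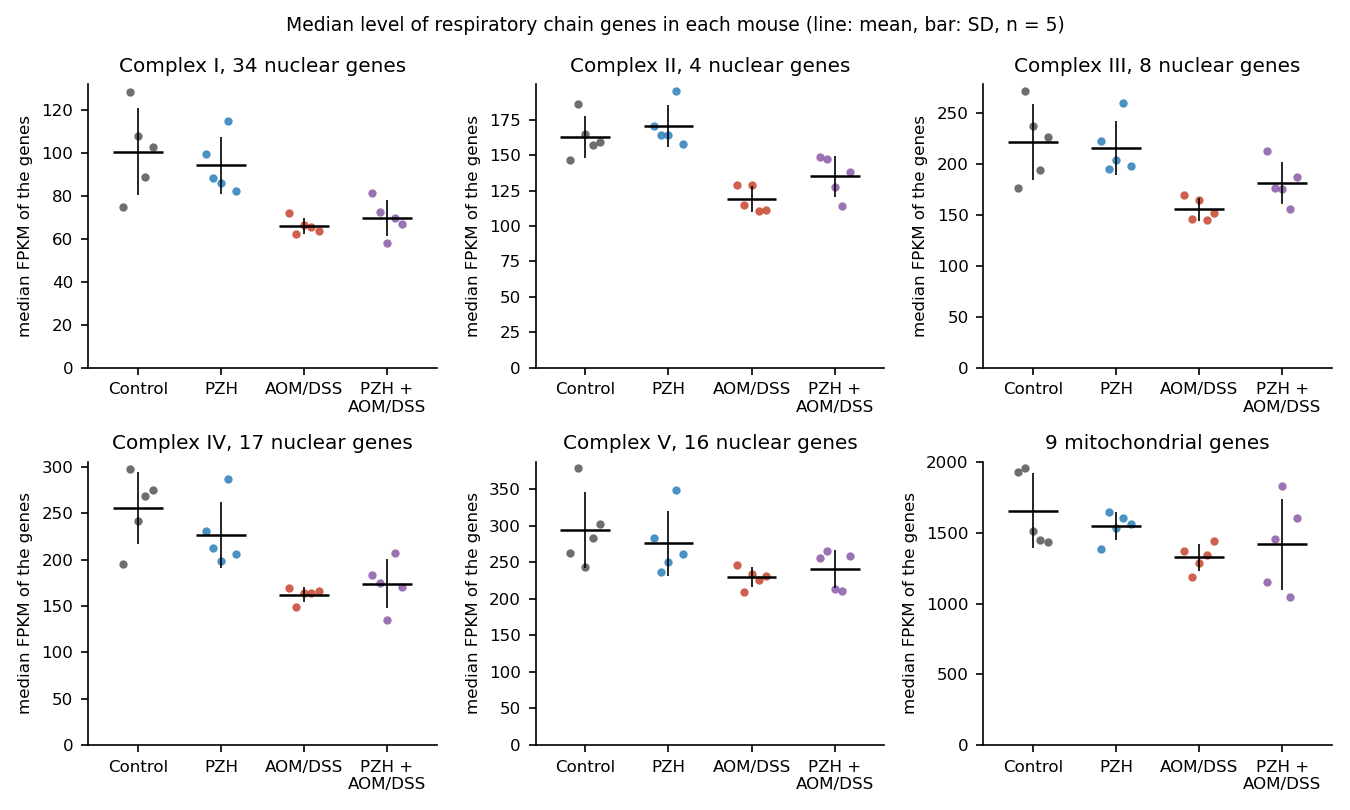
Median FPKM of the nuclear genes of each complex, and of the 9 mitochondrial genes, in each mouse; lines are means and bars SD (n = 5), and genes that reached 0.5 FPKM in 5 or more of the 20 mice are included. For complex I the 5 AOM/DSS mice lie between 62.1 and 72.0 FPKM, below all Control mice (75.1 to 129 FPKM), and the PZH + AOM/DSS mice lie between 58.2 and 81.3 FPKM.

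No respiratory chain gene passed the test for PZH alone. Against Control, 0 of 88 members were called (0.00645% of all 15506 genes were called lower and 0% higher), and 5 passed at an unadjusted p under 0.05, against 8.84% of all genes. The nuclear median difference was -0.11, against 0.01 over all genes. The smallest p among the members was that of Ndufa1, at 132 ± 13.8 FPKM under PZH (difference -0.47, unadjusted p = 0.00583, adjusted p = 0.468, limma). Cox7a1 was at 56.6, 63.0, 30.8, 39.4 and 59.5 FPKM under PZH, with 3 of the 5 below all Control mice (difference -0.65, 95% interval -1.12 to -0.18, adjusted p = 0.512). Ndufa10, Sdha, Uqcrc1 and Atp5b were among 25 nuclear genes with a positive difference (0.27, 0.15, 0.23 and 0.14), none of them called.

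Nor did any pass when PZH was given to AOM/DSS mice. Against AOM/DSS, 0 of 88 members were called in PZH + AOM/DSS mice (0.00629% of all genes were called higher and 0% lower), and 6 passed unadjusted, against 11.7% of all genes. The median difference was 0.08 for nuclear and 0.18 for mitochondrial members, against -0.04 over all genes. Ndufs7, a core iron-sulfur subunit of complex I, was at 101, 89.0, 91.4, 65.1 and 91.8 FPKM against 64.4 ± 6.14 FPKM in AOM/DSS, so that 4 mice stood well above and mouse 35 among the AOM/DSS values (difference 0.43 ± 0.13, unadjusted p = 0.00651, adjusted p = 0.356, limma). Without mouse 35, Ndufs7 was the 1 member of 88 called higher and 0 were lower, while 0.761% of all genes were higher and 4.41% lower. Cox6a1, at 596 to 869 FPKM, stood above all AOM/DSS mice by a small margin (difference 0.34, 95% interval 0.06 to 0.62, adjusted p = 0.367). For Cox7a1 and Cox5b the differences were -0.20 (-0.81 to 0.41) and -0.09 (-0.60 to 0.42). These last 2 intervals leave room for a change in either direction.

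Among the mice given PZH, AOM/DSS went with lower values of most nuclear genes, none past the test. Between PZH + AOM/DSS and PZH, 74 of 79 nuclear genes had a negative difference, with a median of -0.31 against 0.04 over all genes, and 44 passed unadjusted (20.9% of all genes), but 0 nuclear members were called (0.678% of all genes were called lower, 1.74% higher). The lowest adjusted p of a nuclear member was 0.0588, that of Cox5b (224 ± 24.9 and 128 ± 37.5 FPKM, difference -0.86). With all 20 mice in 1 model, 15 of 88 members were lower, against 2.0% of all genes. The 1 member called was mt-Co3, higher by 1.44 (adjusted p = 0.0382), at 38.0 to 80.3 FPKM under PZH and 101 to 239 FPKM under PZH + AOM/DSS. It is a neighbour of mt-Atp6, its Control values run from 53.7 to 1300 FPKM, and it was not called without mouse 35. These mice and those of the AOM/DSS and Control comparison are not shared, and 71 of 79 nuclear genes (89.9%) had a negative difference in both, against 28.0% of all 15229 genes. Across these 79 genes the 2 differences had a Pearson r of 0.52 and a Spearman rho of 0.57, as a description across genes that share their libraries. Over all genes tested r was 0.70.

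Against Control, PZH + AOM/DSS mice had 6 members lower (0.871% of all genes were called lower, 1.55% higher), namely Cox7a1, Ndufb4, Ndufv3, Ndufa1, Cox5b and Ndufa6. The 40 members that passed unadjusted all had negative differences (20.9% of all genes passed unadjusted), and the nuclear median was -0.39 against 0.06 over all genes. Cox7a1 was at 18.2, 33.3, 9.73, 30.9 and 18.03 FPKM in these mice, a difference from Control of -1.86 ± 0.29 (adjusted p = 0.0142, limma). Without mouse 35 the count was 3, and without Control mice 17 and 50 it was 0. The share of all calls that were higher was 64.0%, and became 53.1% under median of ratios scaling, 55.0% with the length trend removed and 75.9% without these Control mice. The difference between the effects of AOM/DSS with and without PZH was tested across all 20 mice, and 0 of 89 members were called (0.0059% of all genes in each direction), with 5 passing unadjusted against 10.3% of all genes. The nuclear median of this interaction was 0.18, against -0.05 over all genes, and 64 of 80 nuclear members had a positive value. So an effect of PZH on these genes was not detectable with 5 mice a group, and the intervals of single genes do not show that it is absent.

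In group means, 71 of 80 nuclear members had both AOM/DSS-treated groups below both other groups. AOM/DSS was the lowest group for 56 and PZH + AOM/DSS for 19, while Control was the highest for 58 and PZH for 20. Since the means of AOM/DSS and PZH + AOM/DSS did not differ by the test, the order of these neighbours is a description. The same orders were not counted over all genes, so how common they are outside the members is not known here.

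Genes of related functions were counted beside the subunits, and their counts are read against the 7.23% of all genes that were lower. Among 21 tested subunits and electron carriers outside the symbol rule, 6 were lower in AOM/DSS than in Control, among them Cyc1, the cytochrome c1 of complex III (179 ± 22.4 and 133 ± 17.1 FPKM), and Higd2a, and 1, Gpd2, was higher. Cytochrome c itself, Cycs, was at 71.1 ± 10.4 and 66.9 ± 9.66 FPKM (adjusted p = 0.683, limma). Of 53 assembly factors, 3 were lower, a share below that of all genes, namely the complex IV factors Cox14, Cox20 and Surf1, and 1, Sdhaf1, was higher. Of 35 regulators of mitochondrial DNA expression and biogenesis, 4 were lower and 1 higher. Ppara fell by 0.73 and Esrrg by 0.79, while Ppargc1a, Nrf1, Tfam and Esrra had differences of -0.15, 0.18, 0.11 and 0.00, none called. Of 20 citric acid cycle genes, 3 were lower, including citrate synthase Cs (272 ± 30.5 and 176 ± 22.8 FPKM, adjusted p = 0.00323). Of 78 mitochondrial ribosomal proteins 4 were lower, also a share below that of all genes, with a median difference of -0.09, and of 24 outer membrane and import genes 4 were lower, among them the channels Vdac1, Vdac2 and Vdac3, and 1 higher. Whether these lists differ from the subunits was not tested.

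Markers of cell types moved in the same comparison. The 10 absorptive colonocyte markers summed to 4414 ± 451 FPKM in Control mice (3900 to 5144), 3347 ± 211 under PZH (2978 to 3498), 1259 ± 429 under AOM/DSS (635 to 1839) and 2356 ± 833 with both treatments (1014 to 3143), and 7 of 10 were lower in AOM/DSS, with a median of -2.18. The 8 smooth muscle markers summed to 3160 ± 1220 FPKM in Control mice (2300 to 5299), 1821 ± 507 under PZH, 1312 ± 347 under AOM/DSS (1024 to 1791) and 1411 ± 600 with both treatments (903 to 2368), with 7 of 8 lower in AOM/DSS. The group means of Cox7a1 were 77.3, 49.9, 23.5 and 22.0 FPKM in the same order, also highest in Control and next in PZH, but with the last 2 groups in the other order than the summed markers. The immune markers summed to 249 ± 84.2, 193 ± 69.2, 664 ± 212 and 429 ± 179 FPKM in this order, with 3 of 7 tested higher in AOM/DSS. The 7 fat markers summed to 4.92 ± 3.27, 3.24 ± 2.74, 2.29 ± 0.681 and 6.16 ± 5.92 FPKM. Among them, Ucp1 was at 0 in all mice outside the PZH group and from 0 to 0.0358 FPKM within it. Of the 9 striated muscle markers, 2 of 4 tested were lower in AOM/DSS. The part of these cell types in the differences of the respiratory chain genes was not tested.

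Transcript length also went with the size of the differences. Respiratory chain transcripts are short, and in AOM/DSS against Control the median difference ran from -0.67 for the 23 nuclear members of up to 600 bases to -0.32 for the 6 members over 1800 bases. Other protein-coding genes of at least 20 FPKM had medians of -0.11, -0.17, -0.05, -0.01 and 0.07 in the 5 length classes, each above the members' median of that class (-0.67, -0.54, -0.45, -0.29 and -0.32). Between PZH and Control, the members (-0.22, -0.10, -0.12, 0.07 and 0.13) and the other genes (-0.26, -0.13, -0.07, -0.05 and 0.03) differed by at most 0.12 in a class. With the trend on length removed within each mouse, the nuclear median for AOM/DSS against Control was -0.48, against 0 over all genes. Before removal these medians were -0.48 and 0.09, so the members lay nearer to all genes after it.

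**Figure D5:**
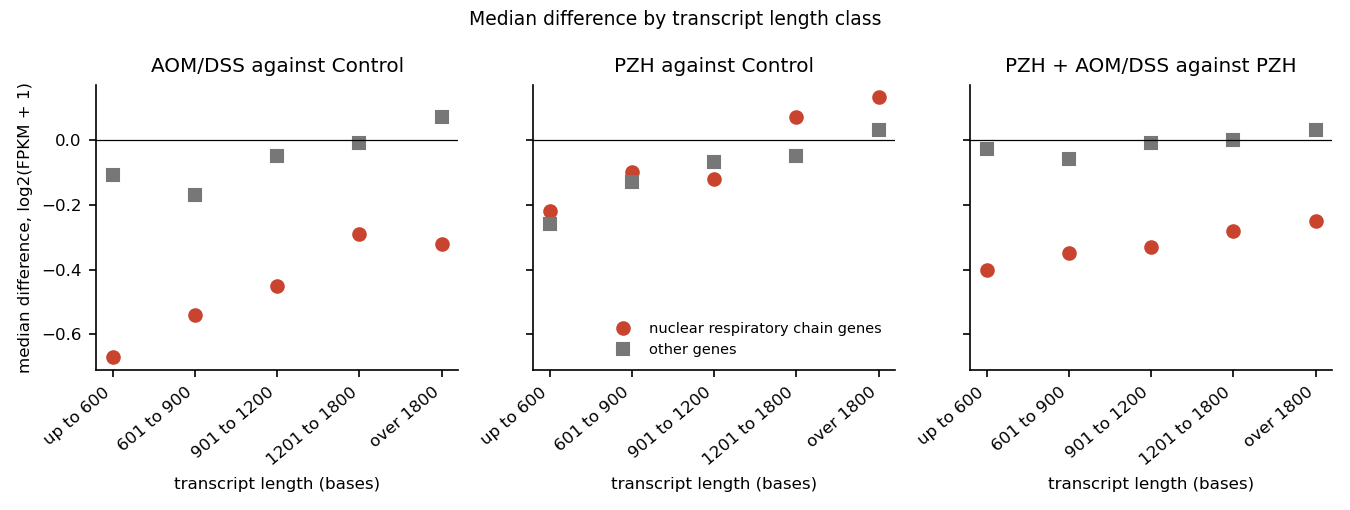
Median difference on the log2(FPKM + 1) scale by transcript length class for nuclear respiratory chain genes (circles) and other protein-coding genes of at least 20 FPKM (squares), in 3 comparisons. In the AOM/DSS comparisons the circles lie below the squares in each class (-0.67 against -0.11 at up to 600 bases), while in PZH against Control they lie at -0.22 and -0.26 in that class.

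Promoter motifs did not divide the members clearly. Of tested members with the NRF1 core, 10 in number, the median difference between AOM/DSS and Control was -0.60, against -0.47 for the 55 without it. For the ETS motif the medians were -0.52 and -0.48, for YY1 -0.52 and -0.48, and for the CCAAT box -0.54 and -0.45. These are descriptions with no test.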

How the data were processed

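Colon RNA of 20 mice in 4 groups of 5 was sequenced after rRNA depletion. The study's methods also name a poly(A) selection, which the labels do not, so how mitochondrial transcripts were captured is uncertain. The authors assessed reads with FastQC, filtered them with NGSQC 2.3.3, aligned them to mm10 with HISAT2 2.1.0 and quantified transcripts with StringTie 1.3.3b. The deposited values were FPKM per transcript; the headers do not name the unit, which was taken from the values and the methods. Of 118434 transcripts, 96182 carried Ensembl names and 22252 were assembled by the authors; the latter took 12.1% to 14.9% of FPKM and were left out, so fragments of a gene that sit in them are not counted. The rest were summed per gene with GENCODE M21 (150 unmatched). Genes with at least 0.5 FPKM in 5 of the compared mice were tested with limma 3.58.1 (R 4.3.3) on log2(FPKM + 1), which understates changes of low genes. A fold is on that scale. Depth was estimated from the spacing of low values. Mice were taken as replicates. The test was checked on simulated data. The members and lists were chosen with earlier results of these data known. Genes given values were the 13 mitochondrial and 4 Sdh genes, the most abundant nuclear gene of each other complex, up to 8 with the largest rise or fall at the threshold in AOM/DSS against Control and 3 elsewhere, tissue-particular isoforms with their partners, and members varying over 3 times within a group. Others, named as examples or exceptions, were chosen after their values were seen. The motifs were searched in promoters of RefSeq, GRCm38.p6.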

Additional observations from a re-analysis of the deposited data

Results flagged for a closer look

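Within groups of 5 mice, 19 of 196 tests for a mouse far from the others (Dixon's test at 95%) picked out a value. Chance gives about 9.8 for genes chosen without regard to spread. Some genes tested here were chosen because they varied over 3 times within a group, and genes of 1 mouse are not independent. The count flagged can therefore not be judged against 9.8. Each value below is in FPKM, with the range of the other 4 mice of its group. In Control, mouse 37 stood at 1957 for mt-Nd2 (1369 to 1515), 1300 for mt-Co3 (53.7 to 229), 1525 for mt-Atp8 (0.126 to 0.153), 23.5 for Ndufa12 (2.49 to 8.17) and 354 for Atp5j2 (226 to 257), all above the rest. Control mouse 48 stood at 1143 for mt-Nd4 (0.205 to 0.245) and Control mouse 50 at 173 for Uqcrfs1 (55.1 to 82.5). Under PZH, mouse 8 stood at 1053 for mt-Nd4 (0.201 to 0.225), and mouse 46 at 1136 for Atp5b (860 to 929), 536 for Cox6b1 (405 to 441), 176 for Ndufa4 (106 to 118) and 53.5 for Ndufc1 (33.4 to 39.1). In AOM/DSS, mouse 30 stood at 838 for mt-Nd4 (0.170 to 0.205), 145 for Uqcrfs1 (49.5 to 57.4) and, on the low side, 149 for the median of nuclear complex IV genes (164 to 169). Mouse 44 of that group was low, at 498 for Cox6a1 (571 to 595) and 48.1 for Ndufs6 (58.9 to 62.3), and mouse 33 high, at 3.46 for Ndufa4l2 (1.28 to 1.77). In PZH + AOM/DSS, mouse 35 stood at 209 for Ndufa4 (96.1 to 117).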

How the results depend on the processing

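No difference turned its direction where it was called. For AOM/DSS against Control the count of members lower was 39 to 51 with 1 mouse left out, and 43 (no filter) to 65 (median of ratios scaling) under the other settings, with 0 higher except 1, Ndufa12, without AOM/DSS mouse 30 (range 0 to 1). For PZH + AOM/DSS against Control the count lower was 14 under median of ratios scaling, 1 with no filter, 32 with all 20 mice in 1 model and 0 without Control mice 17 and 50, against 6, and 1 to 7 with 1 mouse left out (3 or fewer without Control mice 37, 41, 48 or 50, or PZH + AOM/DSS mice 2, 15, 35 or 36). For PZH + AOM/DSS against PZH the count lower was 1 under median of ratios scaling, scaling to nuclear genes or removal of the length trend, and 15 with all 20 mice in 1 model, against 0. There the count higher, 1 (mt-Co3), was 0 with no filter or all 20 mice in 1 model, and 0 to 1 with 1 mouse left out (0 without PZH mice 14, 27 or 53, or PZH + AOM/DSS mice 2, 15 or 35). For PZH + AOM/DSS against AOM/DSS the count higher was 0 to 1, the 1 being Ndufs7 without mouse 35. The cause of these moves was not tested. Removal of the length trend and leaving out Control mice 17 and 50 were chosen after seeing the data. No paired analysis was possible because the groups share no mouse numbers. Depth cannot be turned into counts per gene here, so low genes carry no counting interval.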
